A study of Homo sapiens with 6 samples.

Results

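The 5S rRNA tandem array on human chromosome 1 was examined in small RNA libraries from HEK293T cells, a human embryonic kidney line. Windows were taken if their class label was 5S_rRNA and their start lay between 228.5 and 228.8 Mb on chromosome 1 (GRCh38). This gave 17 of the 53603 windows counted in the study and 17 of the 75 windows with that label. The other 58 are dispersed over the genome. All cells had been transfected for 48 h with 150 nM siRNA in Lipofectamine RNAiMax, either a control siRNA or one against La (gene SSB), and each arm had 3 libraries described as biological replicates. The labels name no other agent or allele that separated the arms, and whether 1 siRNA sequence or a pool was used is not given in the sources used here. The study as a whole concerns RNA polymerase III at the promoters of protein-coding genes, and this polymerase also reads the 5S genes.

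5S rRNA is the small RNA of the large ribosomal subunit that RNA polymerase III makes, while the other ribosomal RNAs come from the RNA polymerase I precursor. Its promoter lies inside the gene, where the factor TFIIIA (gene GTF3A) binds the C box and recruits TFIIIC and TFIIIB. La binds the short run of U residues at the 3′ end of new RNA polymerase III transcripts, 5S precursors included, and the mature RNA joins the ribosomal proteins RPL5 and RPL11 before it enters the ribosome.

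Each window matched 1 annotated gene, RNA5S1 to RNA5S17 in chromosome order, all on the minus strand (GENCODE release 29). The array ran from window positions 228610137 to 228646308, and neighbouring genes were 2215 to 2242 bp apart, with 2241 bp as the median. A window of 400 bp held 150 bp before the start of the gene, the whole gene of 119 bp and then 131 bp beyond its end. Reads of the mature RNA and reads of a precursor therefore fall in the same count, and the table does not say where in a window a read lay or how long it was.

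Of the 17 genes, 16 had one identical sequence in the annotated transcripts, and RNA5S1 (chr1:228610268-228610386, minus strand) stands for them here. RNA5S9 (chr1:228628148-228628266, minus strand) differed from them by a single base. A read that lies wholly within the gene and away from that base matches all 17 genes equally well. The sequences beside the genes were not compared.

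Several dispersed 5S windows carry part of the same sequence. The 3 dispersed windows with the highest mean CPM (counts divided by the scaled library size) held pseudogenes whose first 83 to 90 bases were letter for letter those of RNA5S1. They were RNA5SP389 (chr14:106636672-106636786, plus strand) with 90 bases, RNA5SP145 (chr3:151188099-151188223, plus strand) with 86 and RNA5SP149 (chr3:180161886-180161977, minus strand) with 83. RNA5SP429 (chr16:68742480-68742588, plus strand) shared a run of 76 bases. A read that lies within a shared run matches the array and the pseudogene equally well, so its origin cannot be read from these counts.

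Library totals ran from 3066299 to 4105806 counts, with the highest in control replicate 1. That library also held the highest share of counts in dispersed 5S windows, 0.986% against 0.582% to 0.778% in the other 5. The targeted gene could not be checked in depth. Its first promoter window had 4, 3 and 3 counts with control siRNA and 1, 0 and 0 with La siRNA. The other had 0, 0 and 1 counts with control siRNA and 0, 2 and 0 with La siRNA. Both were too low for the fit, and neither counts SSB mRNA. Of 6 genes fixed as markers of the line (PAX2, LHX1, VIM, LIN28B, NEFM and NEFL), 3 had a matched promoter window and no window had more than 24 counts over all libraries. The 10 windows of 5 genes of other cell types (ALB, PTPRC, COL1A1, PECAM1 and HBB) had 0 counts. Small RNA at promoters thus gave little on cell identity.

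The 16 identical copies had nearly the same count in every library. In control replicates 1 to 3 they ranged from 38118 to 39011, from 31654 to 32390 and from 28464 to 29128 counts. In La knockdown replicates 1 to 3 they ranged from 35617 to 36536, from 30757 to 31615 and from 33560 to 34255 counts. The ranges of the 6 libraries did not overlap. The closest were La knockdown replicate 2, which ended at 31615, and control replicate 2, which began at 31654.

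The coefficient of variation among the identical copies was 0.534% to 0.816% in a library, where counting noise alone gives 0.509% to 0.589%. The chi-square per degree of freedom, which is near 1 for pure counting noise, was 0.967 in La knockdown replicate 3 and 2.08 in La knockdown replicate 2, with the other libraries between. Over copies and libraries together it was 1.36, and for the counts of each copy summed over all libraries it was 1.92. Summed over all libraries, the counts of these copies ran from 200192 for RNA5S12 to 202318 for RNA5S11, a difference of 1.06%. The count did not follow their order along the array (Spearman's rho of -0.01 across 16 copies, which share reads and are not independent). Reads within the gene match the identical copies equally well, and how such reads were placed is not given. The copies are therefore treated as 1 block, and 17 windows do not give 17 measurements.

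**Figure D1:**
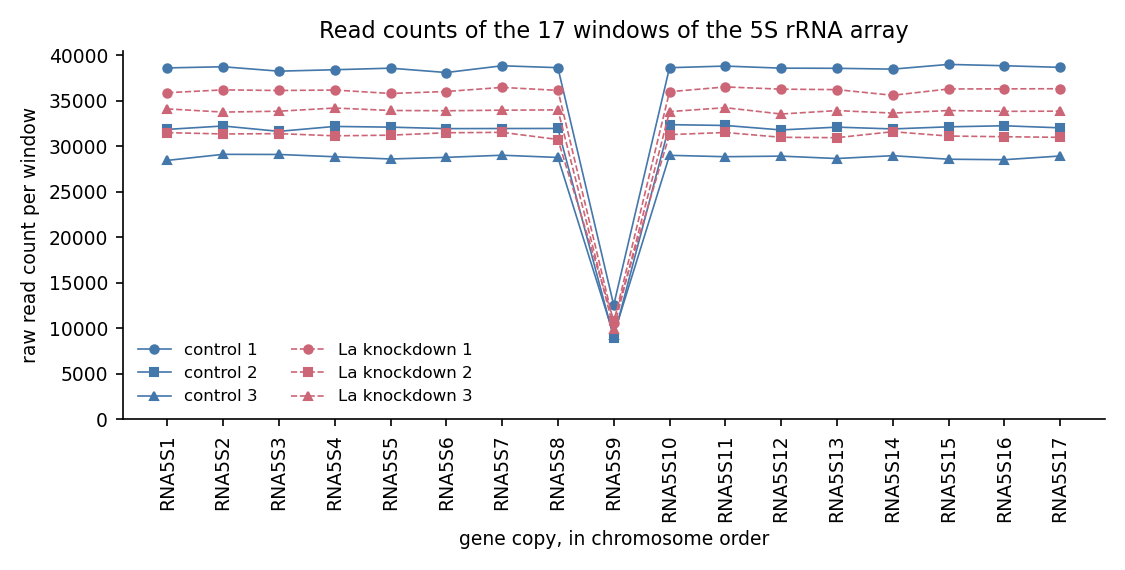
Raw read count (vertical axis, from 0) of each of the 17 windows in chromosome order (horizontal axis), with 1 line per library, blue and solid for control, red and dashed for La knockdown. Each line is flat over the 16 identical copies and drops at RNA5S9, to between 8995 and 12558 counts.

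The 3 copies with the highest mean CPM show how alike the identical copies were. RNA5S11 had 38828, 32301 and 28868 counts with control siRNA and 36536, 31530 and 34255 with La siRNA. RNA5S7 had 38861, 31965 and 29030 counts with control siRNA and 36483, 31545 and 33981 with La siRNA. RNA5S2 had 38753, 32243 and 29128 counts with control siRNA and 36212, 31367 and 33771 with La siRNA. In each of them control replicate 1 was highest, control replicate 3 was lowest and the arms overlapped.

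RNA5S9, the copy with the differing base, stood apart from the others in every library. It had 12558, 8995 and 9265 counts with control siRNA and 10645, 10836 and 9959 with La siRNA. This was 32.5%, 28.1% and 32.1% of the mean identical copy with control siRNA and 29.4%, 34.7% and 29.4% with La siRNA. The highest and the lowest ratio were both second replicates, of La knockdown and control, and the arms overlapped. The means were 30.9% ± 2.47 and 31.2% ± 3.04 (SD, n = 3 each), a difference of 0.255 percentage points that was well within the spread between libraries (two-sided exact permutation p = 1, smallest possible 0.1). This comparison was chosen after the counts had been seen. RNA5S9 held 1.72% to 2.12% of the array's counts, while each identical copy held 6.02% to 6.21%.

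The dispersed windows with the long shared 5′ run lay below RNA5S9 in every library. RNA5SP389 had 10837, 4801 and 4194 counts with control siRNA and 3390, 3716 and 5961 with La siRNA. RNA5SP145, on another chromosome, had 10849, 4705 and 3980 counts with control siRNA and 3409, 3769 and 5928 with La siRNA. These 2 windows, which have their first 86 bases in common with RNA5S1, differed by 0.111% to 5.38% in a library. RNA5SP149 had 8100, 3701 and 3018 counts with control siRNA and 2681, 3168 and 4472 with La siRNA. In raw counts all 3 were highest in control replicate 1 and lowest in La knockdown replicate 1, the library with the lowest total. In CPM they were lowest in control replicate 3 (1087, 1032 and 782 in the order above), as was the array. They were highest in control replicate 1 in CPM too, whereas the array was highest in La knockdown replicate 1.

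Relative to the mean identical copy of the array, RNA5SP389 stood at 28.1%, 15.0% and 14.5% with control siRNA and at 9.37%, 11.9% and 17.6% with La siRNA. The control mean was 19.2% ± 7.68 and the La knockdown mean 12.9% ± 4.20 (SD, n = 3 each). Without control replicate 1 the control mean was 14.8%, and the arms overlapped with or without it. RNA5SP429, with a shared run that stops short of the differing base, had 2049, 1497 and 1702 counts with control siRNA and 1480, 2327 and 1395 with La siRNA. It stood at 4.09% to 7.45% of the mean identical copy and was highest in La knockdown replicate 2, as was the ratio of RNA5S9. Among the 48 dispersed windows that hold an annotated copy, the longest run shared with RNA5S1 ranged from 10 to 90 bases, with a median of 22. The summed count of a window rose with that run (Spearman's rho of 0.68 across 48 windows). With the percent of the 119 bases of RNA5S1 that a copy matched when aligned, rho was 0.30. That percent scores a short copy low even where it matches well. RNA5SP149, 92 bases long, matched 90 bases and stood at 75.6%. Both rho values are descriptions across windows that share libraries and reads. Of all dispersed 5S windows, 10 had no annotated copy and 10 had no read.

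**Figure D2:**
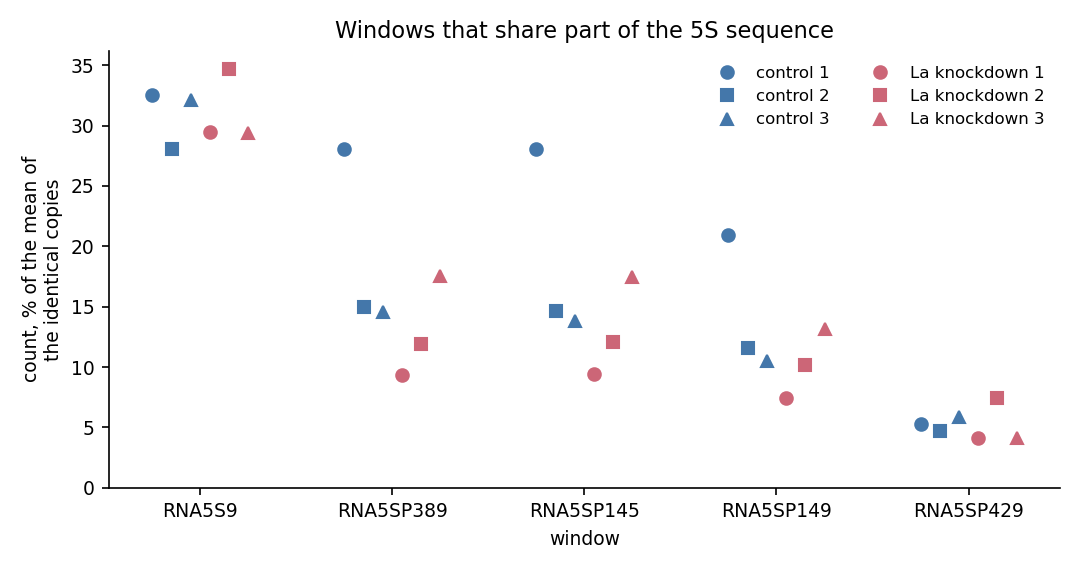
Count of 5 windows that share part of the 5S sequence, as a percent of the mean of the 16 identical copies in the same library (vertical axis, from 0). Points are libraries, blue for control and red for La knockdown, with circles, squares and triangles for replicates 1, 2 and 3. RNA5S9 lies between 28.1% and 34.7%, and control replicate 1 is the highest point for RNA5SP389, RNA5SP145 and RNA5SP149.

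The array was among the most heavily read regions of the data. Its identical copies ranked 9 to 24 among all windows by summed counts, and RNA5S9 ranked 101. The array held 630574, 521966 and 470606 counts with control siRNA and 589253, 510917 and 552699 with La siRNA. As a share of all counts this was 15.4%, 16.0% and 13.5% with control siRNA and 19.2%, 15.0% and 17.5% with La siRNA. La knockdown replicate 1 was the highest and control replicate 3 the lowest, and the arms overlapped. The means of 15.0% ± 1.30 and 17.2% ± 2.13 (SD, n = 3 each) differed by 2.28 percentage points, which was not beyond the spread between libraries (two-sided exact permutation p = 0.3, smallest possible 0.1). The difference was 1.29 without La knockdown replicate 1 and 1.55 without control replicate 3 (exact permutation p = 0.5 for each). With rRNA windows left out of the total it was 8.10 percentage points and the arms did not overlap (exact permutation p = 0.1). In bulk libraries a change in the number of cells and a change in RNA per cell cannot be told apart.

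Counted as 1 feature, the array did not pass the test between the arms. Its TMM-scaled CPM was 163281, 153085 and 121567 with control siRNA and 212256, 154072 and 172633 with La siRNA. Control replicate 1 lay above La knockdown replicate 2, so the arms overlapped. The control mean was 145977 ± 21746 and the La knockdown mean 179653 ± 29720 (SD, n = 3 each). The log2 fold change of La knockdown over control was 0.30 (SE 0.22, edgeR quasi-likelihood adjusted p = 0.371, unadjusted 0.204), and its 95% interval ran from -0.19 to 0.79. Of the 1048 rows in that fit, 5.53% were called at an adjusted p under 0.05. The log2 fold change was 0.15 without La knockdown replicate 1 and 0.19 without control replicate 3. It was 0.04 without a filter on low counts and 0.59 with upper quartile factors, and it passed the threshold under none of the 17 alternatives run. Counting windows with identical counts once was among these and left the fit unchanged, since no windows of the array had identical counts.

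**Figure D3:**
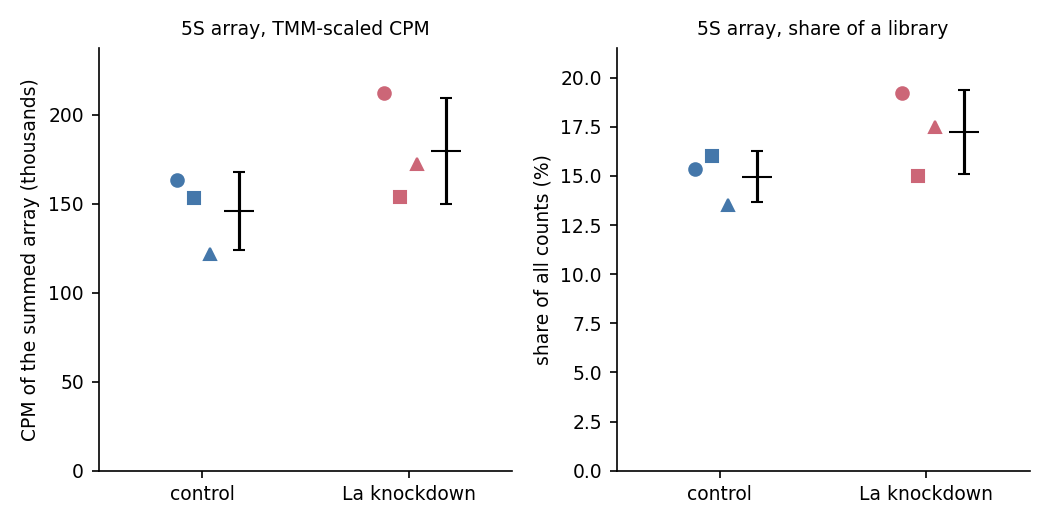
Summed counts of the 17 windows per library, as TMM-scaled CPM divided by 1000 (left) and as the percent of all counts (right), both axes from 0. Circles, squares and triangles are replicates 1, 2 and 3, and the bars give mean ± SD of 3 libraries. The arms overlap in both panels, and La knockdown replicate 1 is the highest point at 19.2% of all counts.

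Taken as separate windows, all 17 passed the filter on low counts and 0 of 17 were called (edgeR quasi-likelihood, adjusted p from 0.389 to 0.409), against 5.45% of the 1064 windows tested. Without La knockdown replicate 1 no window of any class was called, and without La knockdown replicate 3 the calls over all windows were 21 higher and 98 lower, against 7 and 51 with all libraries. At an unadjusted p under 0.05 the count was also 0, and DESeq2 called 0 at either threshold. The arms were apart in 0 of 17, against 32.0% of the windows tested. The fitted log2 fold changes ran from 0.27 for RNA5S10 to 0.29 for RNA5S6, with a median of 0.28 beside -0.05 over all windows tested. RNA5S10 had 38649, 32390 and 29018 counts with control siRNA and 36009, 31295 and 33824 with La siRNA. RNA5S6 had 38118, 31954 and 28797 counts with control siRNA and 36033, 31499 and 33917 with La siRNA. For RNA5S9 the fitted value was 0.28 (SE 0.21, edgeR adjusted p = 0.393), within the range of the identical copies. In the authors' deposited table the log2 fold changes of the 17 windows ran from 0.01 for RNA5S10 to 0.03 for RNA5S1, each with an adjusted p of 1. The refit without a filter on low counts likewise gave 0.01 for RNA5S10, and for RNA5S6 it gave 0.03, as did the authors. What set the authors' values apart from the main fit was not tested.

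Of the 58 dispersed 5S windows, 29 passed the filter and 0 were called (lowest edgeR adjusted p = 0.0959), with a median log2 fold change of 0.26. RNA5SP389 was at -0.35 (SE 0.36, edgeR adjusted p = 0.518), RNA5SP145 at -0.32 (adjusted p = 0.561) and RNA5SP149 at -0.27 (adjusted p = 0.611). These directions rested on control replicate 1. Without it the values were 0.15, 0.21 and 0.23 in the same order, and in refits added after seeing the data upper quartile factors also put RNA5SP145 and RNA5SP149 above 0.

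**Figure D4:**
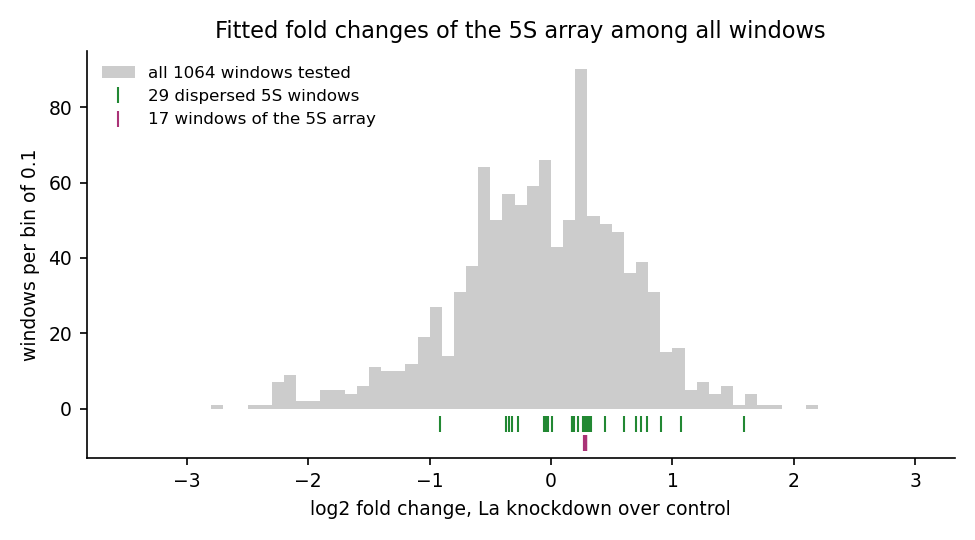
Distribution of fitted log2 fold changes, La knockdown over control, of all 1064 windows tested (grey bars, windows per bin of 0.1). Ticks under the bars mark the 29 dispersed 5S windows (green) and the 17 windows of the array (purple). The purple ticks fall on top of each other between 0.27 and 0.29.

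The array was next set against 3 related classes within each library, which needs no scaling factor. The log2 ratio of the array to tRNA windows, whose genes are also read by RNA polymerase III but from another type of internal promoter, was -0.02, 0.06 and -0.25 in the control libraries. In the La knockdown libraries it was 0.79, 0.55 and 0.40. All La knockdown libraries lay above all control libraries, and the means of -0.07 ± 0.16 and 0.58 ± 0.20 (SD, n = 3 each) differed by 0.65. The two-sided exact permutation p was 0.1, which is as low as 3 against 3 can go. Adjusted by Benjamini-Hochberg over the 3 ratios it was 0.3, so the difference did not pass the threshold. This ratio equals the array's share of all counts over that of tRNA windows, so a lower tRNA share raises it. The tRNA share was 15.6%, 15.3% and 16.0% with control siRNA and 11.1%, 10.2% and 13.3% with La siRNA, with no overlap. The array's share overlapped between the arms, with means of 15.0% and 17.2%. The difference in the ratio is therefore not one of the array alone.

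The log2 ratio of the array to windows with the label rRNA, a class kept apart from 5S_rRNA, was -1.16, -1.32 and -1.70 with control siRNA and -1.28, -1.86 and -1.21 with La siRNA. The arms overlapped, and the means of -1.39 ± 0.28 and -1.45 ± 0.36 (SD, n = 3 each) gave an exact permutation p of 0.7, also 0.7 after adjustment. The share of counts in rRNA windows was 39.4% ± 4.89 and 47.3% ± 6.98 (SD, n = 3 each), and its part in the share of the array was not tested. The direction of this ratio was not stable, at 0.06 in favour of the La knockdown arm without control replicate 1 and 0.15 without La knockdown replicate 2.

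The log2 ratio of the array to dispersed 5S windows was 3.96, 4.58 and 4.52 with control siRNA and 5.04, 4.44 and 4.49 with La siRNA. Apart from control replicate 1 and La knockdown replicate 1 the libraries lay close together. The means of 4.35 ± 0.34 and 4.66 ± 0.33 (SD, n = 3 each) differed by 0.31 (exact permutation p = 0.6, adjusted 0.7). The difference was 0.11 without either of these libraries in turn. RNA5SP389, RNA5SP145 and RNA5SP149 held 45.4% to 73.5% of the counts in dispersed windows. With them left out, a choice made after the counts had been seen, the means were 5.82 ± 0.14 and 5.84 ± 0.46 (SD, n = 3 each), a difference of 0.02.

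**Figure D5:**
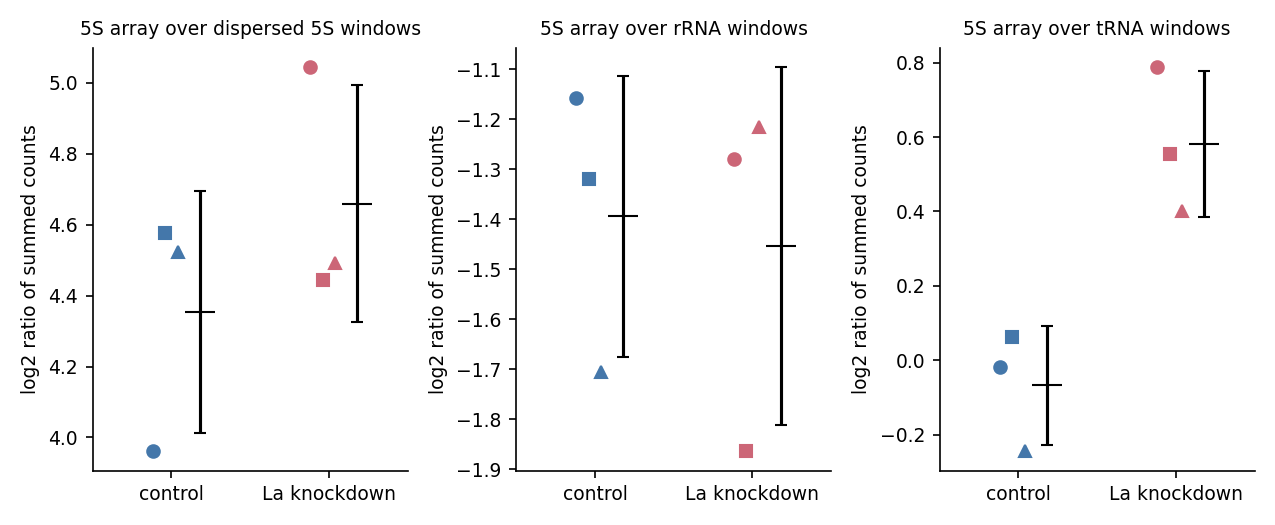
Log2 ratio of summed counts of the array to dispersed 5S, rRNA and tRNA windows (left to right), per library. Circles, squares and triangles are replicates 1, 2 and 3, bars give mean ± SD of 3 libraries, and each vertical axis has its own range and does not start at 0. The arms overlap in the left and middle panels and are apart in the right panel, where the means differ by 0.65.

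Genes that make or carry 5S rRNA gave few reads at their own promoters. Of 32 genes fixed as a list (TFIIIA, TFIIIC, TFIIIB and RNA polymerase III subunits, the 5S ribonucleoprotein and its assembly and processing factors), 29 had a promoter window. Of their 51 windows 41 had a read, 1 passed the filter and 0 were called. The tested window was that of RPL5, the ribosomal protein that binds 5S rRNA. It had 7, 10 and 15 counts with control siRNA and 10, 9 and 9 with La siRNA, and its fitted log2 value was 0.06 (SE 0.42, edgeR adjusted p = 0.929). GTF3A, which encodes the 5S-specific factor TFIIIA, had 1, 0 and 1 counts with control siRNA and 1, 0 and 1 with La siRNA. Changes at these promoters could not be assessed at such low counts.

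Among the other tested windows with a mean of at least 20 counts, the 3 whose log2 CPM followed the array most closely over the 6 libraries came from different classes. They held SNORD95, a small nucleolar RNA gene within RACK1 (Pearson's r of 0.92), RN7SK, the RNA polymerase III gene for 7SK RNA (r of 0.89), and part of RNA45SN3, a copy of the RNA polymerase I repeat (r of 0.88). These values describe 6 libraries that share depth and scaling. They were picked as the highest r among 882 windows compared. Whether they exceed the highest values that chance would give among so many windows was not tested. The SNORD95 window had 1590, 1141 and 1150 counts with control siRNA and 1401, 1385 and 1310 with La siRNA, and its fitted log2 value was 0.35 (edgeR adjusted p = 0.334). The RN7SK window was at 0.17 (adjusted p = 0.642) and the RNA45SN3 window at 0.27 (adjusted p = 0.396).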

How the data were processed

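Per the labels' protocols, mirVana PARIS columns gave the small RNA, phosphatase and then polynucleotide kinase prepared its ends, and NEBNext small RNA reagents built the 6 libraries. The deposited table holds raw counts per window, per the file headers. The submitters' processing notes name Trim Galore, Bowtie2, bedtools, edgeR and GRCh38 (hg38). Whether strand was used, and where a read with several equal matches was placed, is not given in the sources used here, so array copies were summed into 1 feature. The authors' deposited comparison holds a log2 fold change, a log2 CPM, an F score and p-values.

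The quasi-likelihood test of edgeR 4.0.16 (R 4.3.3) set La knockdown against control across all windows (filterByExpr, TMM factors, arm as the only term, Benjamini-Hochberg adjustment, threshold 0.05), once per window and once with the array as 1 row. Standard errors came from the fold change and the F statistic, and the interval from the model's 10.3 degrees of freedom. For shares and ratios the test was an exact permutation of the arms, two-sided. DESeq2 1.42.0, other scalings, filters, a replicate block and leaving out libraries were alternatives. On simulated data, in which 193 of 1023 rows changed by 2 on the log2 scale with the array as 1 row, 98.4% were recovered. Of the rows called, 2.56% were unchanged ones. Recovery of a change as small as the 0.30 fitted for the array was not tested. Gene positions and the comparison of copies came from GENCODE release 29 (GRCh38), the sequences are not reported here, and names of other windows from RefSeq (GRCh38.p14).

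Named copies were the 3 with the highest and the 1 with the lowest mean CPM, those with the highest and lowest fold change, and any called. The members and lists were chosen with earlier results of these data known. No count column was left unused. The lowest library total of 3066299 counts put counting error on the array far below the spread between libraries.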

Additional observations from a re-analysis of the deposited data

How the results depend on the processing

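The array as 1 feature stayed above 0 and short of the threshold in all 17 alternatives, and 0 of its windows were called in any of the 17 run on single windows. Its log2 fold change of 0.30 ranged from 0.04 without a filter on low counts (edgeR adjusted p = 0.993) to 0.59 with upper quartile factors (adjusted p = 0.136, unadjusted 0.0470). With those factors the median over all windows shifted by 0.32, and relative to that median the array stood at 0.33, against 0.35 with TMM factors. The same distance was 0.0016 without a filter (cause not tested), 0.21 without control replicate 3 and 0.22 without La knockdown replicate 1. Leaving out 1 library gave 0.15 to 0.39 (edgeR adjusted p from 0.369 to 0.732). All 90 refits of the 6 named copies stayed above 0 and short of the threshold, but these copies belong to 1 block and add no separate measurement. A replicate block gave 0.30 (edgeR adjusted p = 0.595). Deviations of libraries with the same replicate number correlated at 0.14, 0.23 and -0.46 for numbers 1 to 3. These values do not settle whether the libraries were paired. Over all windows the calls were 7 higher and 51 lower. They were 20 and 88 with the block, 23 and 76 with DESeq2, 58 and 36 with upper quartile factors and 4 and 104 without a filter. Leaving out 1 library gave 0 in either direction (without La knockdown replicate 1) to 21 and 98 (without La knockdown replicate 3).

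The difference in the array's share of counts, 2.28 percentage points, was 8.10 with rRNA windows left out of the total (exact permutation p = 0.1). It was 4.20 with the other windows among the 50 most read left out (exact permutation p = 0.2), with RNA5S9 counted again in that total. Over libraries left out it ran from 1.29 to 3.40. The difference in log2 ratio to rRNA windows, -0.06, reversed to 0.06 without control replicate 1 and to 0.15 without La knockdown replicate 2, within a range of -0.21 to 0.15 (cause not tested). That to tRNA windows stayed between 0.54 and 0.74 in all 8 alternatives, and that to dispersed windows between 0.11 and 0.42, or 0.02 without RNA5SP389, RNA5SP145 and RNA5SP149, added after seeing the data. The difference in the ratio of RNA5S9 to an identical copy, 0.255 percentage points, reversed to -1.17 without control replicate 2 and -1.50 without La knockdown replicate 2, within -1.50 to 1.15 over libraries left out, another alternative added then. In refits added after seeing the data, RNA5SP389, RNA5SP145 and RNA5SP149 reversed to 0.15, 0.21 and 0.23 without control replicate 1, and upper quartile factors put the last 2 at 0.013 and 0.062. Over libraries left out their values ran from -0.70 to 0.15, -0.66 to 0.21 and -0.57 to 0.23. Depth was not the limit for the array, and it was for the promoters of the listed genes.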
